A study of Mus musculus with 2 samples.

Results

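The genes described here are 10 ligands and receptors of the platelet-derived growth factor (PDGF), vascular endothelial growth factor (VEGF) and angiopoietin families: Pdgfa, Pdgfb, Pdgfc, Pdgfd, Pdgfra, Pdgfrb, Vegfa, Vegfb, Vegfc and Angpt1. They were chosen by name, through the gene name or the accession that the array files give each probe, and they account for 10 of 19505 named genes on the array and for 20 of 41174 probes. Expression was measured on 2 Agilent microarrays with 2 colours, and each array compared thymic stromal cells grown in reaggregation thymus organ culture (RTOC), in which dispersed cells form a pellet on a filter at the surface of the medium, with the same kind of cells spread on a dish in 2D culture. In both cultures on both arrays the cells came from thymus lobes of C57BL/6 fetuses that had been kept with 1.35 mM deoxyguanosine in organ culture to deplete dividing thymocytes, and were then dispersed and cultured for 72 h. On 1 array the lobes were taken at E14.5 and held in organ culture for 8 days; on the other they were taken at E15.5 and held for 9 days. Neither the number of fetuses pooled nor the number of separate cultures is stated in the sources used here. RTOC was labelled with Cy5 and 2D culture with Cy3 on both arrays, with no dye swap, so a dye effect of a probe cannot be told apart from a culture effect. The arrays were taken as 2 replicates of 1 comparison, so that the array cannot be told apart from fetal stage and from the days in organ culture.

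PDGF ligands are dimers that bind to 2 receptor tyrosine kinases: PDGFRα is bound by PDGF-A, PDGF-B and PDGF-C, and PDGFRβ by PDGF-B and PDGF-D. VEGF-A and VEGF-B bind to VEGF receptors of endothelial cells, VEGF-C acts mainly on lymphatic vessels, and angiopoietin-1 activates the endothelial receptor Tie2 and steadies vessels. In the fetal thymus, PDGFRα marks the mesenchyme of the capsule, PDGFRβ marks mesenchyme and the pericytes that wrap vessels, and VEGF-A from epithelium and mesenchyme draws vessels into the lobe.

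Signals are given as log2 of the quantile-normalized intensity, and differences as the log2 ratio of RTOC over 2D culture within an array, so that 1 is a doubling. A probe was tested where, on each of the arrays, the scanner software marked 1 or more channels as well above background. The ratio was tested against 0 with limma, and a probe was called where its p-value, adjusted over all 23685 tested probes, was below 0.05. A gene with several probes is represented by its brightest tested probe, and its other probes are given beside it. Intensities of different probes are not set against each other. A summed intensity of a list adds different probes, so the brightest weigh most and it does not show how most genes of the list changed. The RNA came from mixed cells, in which fewer cells of a type and less RNA per cell cannot be told apart. Channels had 53.1% to 60.9% of their probes well above background, and no member's spot was saturated.

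Of the 10 genes, 9 were well above background in all 4 channels, and 6 of these were called, 2 of them higher in RTOC (Pdgfra and Vegfb) and 4 lower (Pdgfc, Vegfc, Pdgfb and Pdgfrb). Pdgfa, Pdgfd and Vegfa were not called. Over all 12074 tested genes that were well above background in all channels, 24.9% were called, 1517 as higher and 1486 as lower. Since the members and the lists below were chosen with earlier results of these data known, such shares are a description and no test. Angpt1 was well above background in RTOC alone, so that it entered the test only through the culture in which it was high; it was called as higher, and its size is given as a bound. The median log2 ratio was -0.68 over the 9 genes and -0.03 over the 12074. By probe, 9 of the 15 probes of these genes that were well above background in all channels were called; 3 were called higher, against 11.8% of all such probes, and 6 lower, against 13.2%. On both arrays 2 of the 9 genes had a ratio above 0 and 5 a ratio below 0, and in Pdgfd and Vegfa the sign differed between the arrays. Among the 12074 genes, 172 had a higher mean ratio than Pdgfra and 308 a lower one than Pdgfc.

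**Figure D1:**
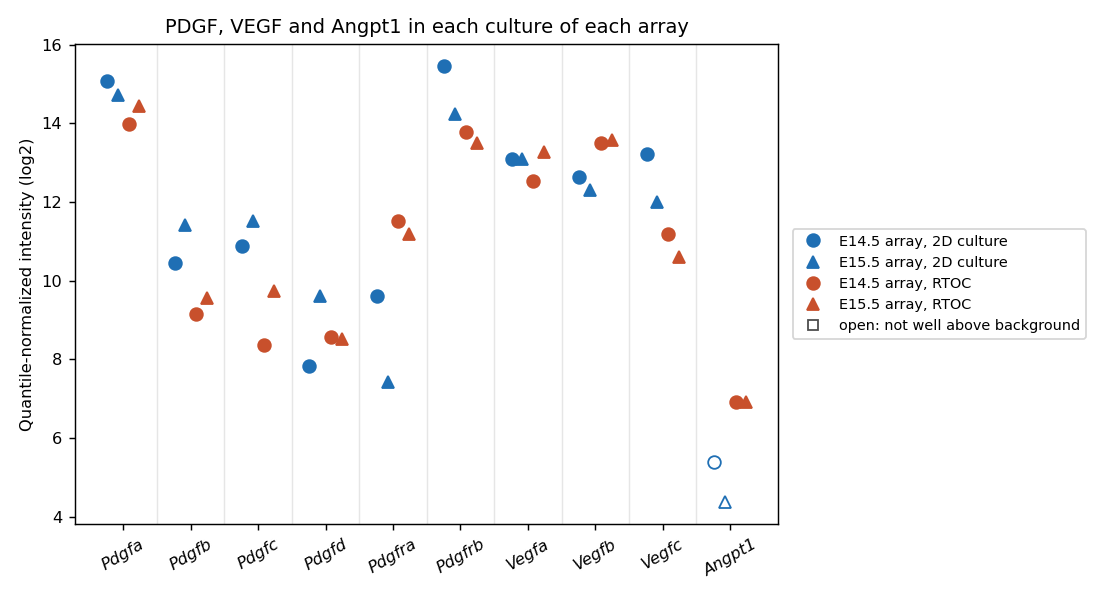
Quantile-normalized intensity (log2) of the brightest tested probe of each gene in each culture of each array, with blue for 2D culture, red for RTOC, circles for the E14.5 array and triangles for the E15.5 array; open symbols were not well above background. Levels compare within a gene only: the RTOC points of Pdgfra lie above both 2D points, those of Pdgfc lie below both, and Angpt1 was well above background in RTOC alone.

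**Figure D2:**
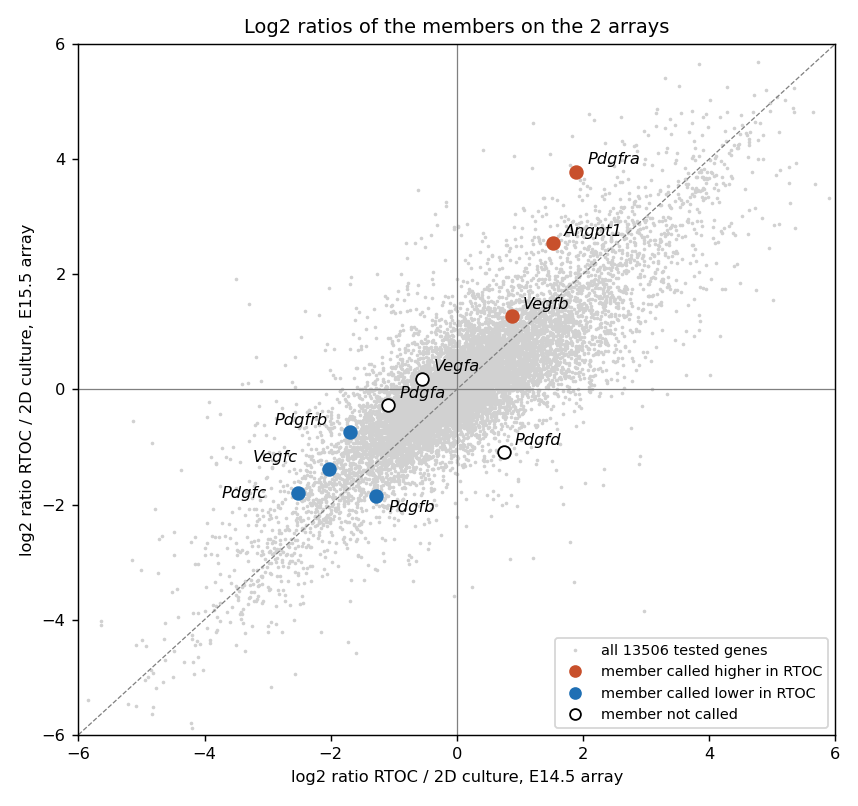
Log2 ratio of RTOC over 2D culture on the E14.5 array (x axis) against that on the E15.5 array (y axis) for 13506 tested genes (grey) and the 10 members (circles, red where called higher, blue where called lower, open where not called); the dashed line marks equal ratios. Pdgfra lies at 1.90 and 3.78, and Pdgfd is the member farthest into a quadrant of opposite signs, at 0.75 and -1.08.

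Among the PDGF ligands, Pdgfc and Pdgfb were lower in RTOC. Pdgfc encodes PDGF-C, which is secreted with a CUB domain that must be cut off before it can bind to its receptor. Its signal was 10.89 (E14.5) and 11.53 (E15.5) in 2D culture and 8.36 and 9.74 in RTOC, so both RTOC values lay below both 2D values. The log2 ratios of -2.53 (E14.5) and -1.79 (E15.5) had a mean of -2.16 ± 0.52 (SD, n = 2 arrays; 95% confidence interval -2.90 to -1.42), which is 4.47-fold lower (adjusted p = 0.00624 from limma). Another probe of Pdgfc gave almost the same value, -2.30 ± 0.61 (adjusted p = 0.00602). The third probe of the gene, A_52_P408629, was well above background in no channel and was not tested.

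Pdgfb encodes PDGF-B, the ligand by which endothelial cells draw pericytes to vessels. Its signal was 10.45 and 11.41 in 2D culture (E14.5 and E15.5) and 9.16 and 9.57 in RTOC, again with no overlap between cultures. The mean log2 ratio was -1.57 ± 0.40 (SD, n = 2 arrays; 95% confidence interval -2.26 to -0.87; adjusted p = 0.0135 from limma), or 2.96-fold lower, and the ratios of the single arrays were -1.29 and -1.85. Under normexp the mean was smaller, at -1.03 with loess and -0.87 with median centring, and was called in both (adjusted p = 0.0443 and 0.0495 from limma). The other probe gave -1.66 ± 0.66 (adjusted p = 0.0170), so that both probes of Pdgfb and both tested probes of Pdgfc were called in the same direction.

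Pdgfa encodes PDGF-A, a ligand of PDGFRα that epithelia often make. It gave a signal of 15.08 and 14.72 in 2D culture and of 13.99 and 14.44 in RTOC. The 2D values were the higher ones on both arrays, yet the mean log2 ratio of -0.68 ± 0.57 (SD, n = 2 arrays) did not pass the test (adjusted p = 0.147 from limma; 95% confidence interval -1.44 to 0.08). A dimmer probe gave -0.87 ± 0.41 and also missed the threshold (adjusted p = 0.0675); it was called in 1 alternative (adjusted p = 0.0481, both channels well above background).

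Pdgfd encodes PDGF-D, which like PDGF-C is released with a CUB domain. Its probes did not give the same answer, and their sequences are shown because the reading of the gene turns on them. The array files assign the brighter probe to a cDNA record outside RefSeq and the dimmer one to a RefSeq transcript. Whether both measure the same transcripts was not tested. They are written 5′ to 3′ in the sense of the transcript as in the array files, the first in full (60 bases) and the other by its first 30 bases.
Pdgfd A_52_P264790: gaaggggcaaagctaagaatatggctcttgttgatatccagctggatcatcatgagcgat
Pdgfd A_52_P636948: atggctcctataaaaaacaccaaaatgtac
The brightest probe, A_52_P636948, gave a signal of 7.82 and 9.60 in 2D culture and of 8.56 and 8.52 in RTOC. The RTOC values fell between the 2D values, the log2 ratio was 0.75 at E14.5 and -1.08 at E15.5, and the mean of -0.17 ± 1.29 (SD, n = 2 arrays) was not called (adjusted p = 0.805 from limma; 95% confidence interval -1.32 to 0.99). The dimmer probe, A_52_P264790, gave 7.15 and 8.12 in 2D culture and 5.62 and 5.98 in RTOC, where it was well above background on the E15.5 array only. Its ratios of -1.53 (E14.5) and -2.14 (E15.5) had a fitted mean of -1.84 ± 0.43, which was called as lower (adjusted p = 0.00869), but since its RTOC signal was measured on 1 array alone this mean is no measure of size. Under normexp with median centring the mean was -0.29, and the call was lost in 5 of the 11 alternatives with a test after adjustment. In 2D culture the 2 probes moved the same way between the arrays, by 1.78 and 0.97 from E14.5 to E15.5. In RTOC they moved by -0.05 and 0.36.

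**Figure D3:**
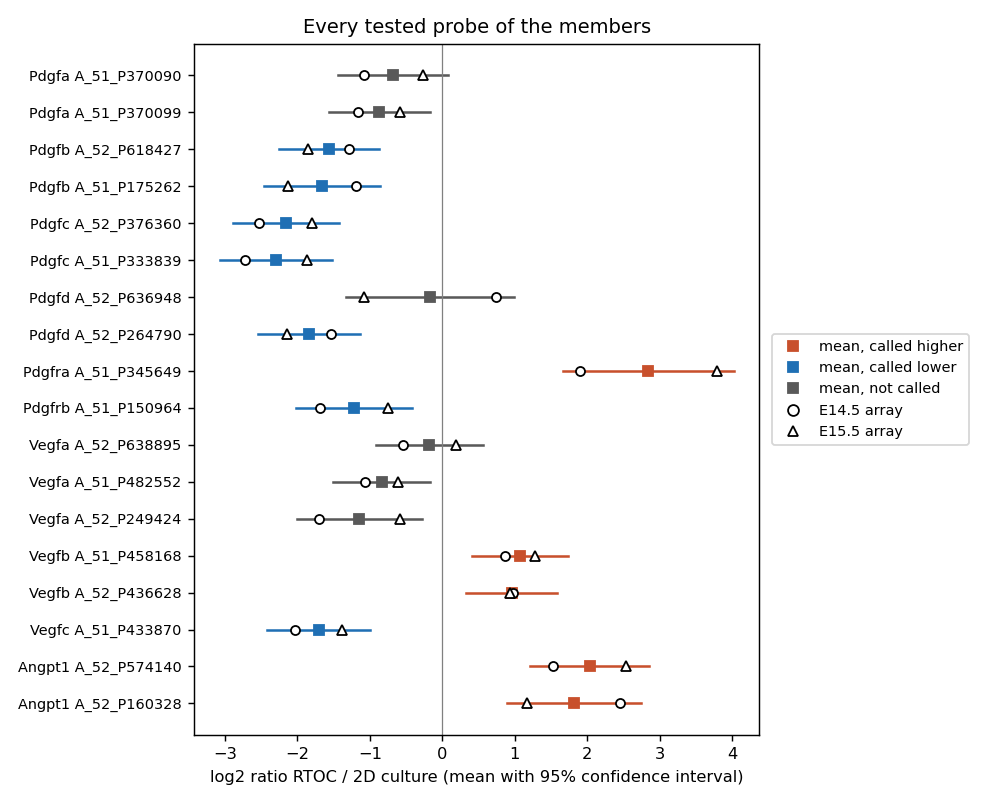
Log2 ratio of RTOC over 2D culture for the 18 tested probes of the 10 genes, with the mean of 2 arrays (square) and its 95% confidence interval from limma (line), the E14.5 array (circle) and the E15.5 array (triangle). The probes of Pdgfb, Pdgfc and Vegfb lie together, whereas those of Pdgfd and Vegfa lie farther apart. The dimmer Pdgfd probe was well above background in RTOC on the E15.5 array only. The means of the Angpt1 probes are close, but their ratios on the single arrays run in opposite order. Their 2D signals were not well above background.

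The receptors of the PDGF family changed in opposite directions. Pdgfra encodes PDGFRα, the marker of thymic capsule mesenchyme and the receptor of PDGF-A and PDGF-C. Its signal in 2D culture was 9.61 (E14.5) and 7.41 (E15.5), and in RTOC it was 11.50 and 11.20. The log2 ratios of 1.90 and 3.78 gave a mean of 2.84 ± 1.33 (SD, n = 2 arrays; 95% confidence interval 1.66 to 4.02; adjusted p = 0.0112 from limma), which is 7.16-fold higher in RTOC. The arrays differed far more in 2D culture, by -2.19 from E14.5 to E15.5, than in RTOC, by -0.31. This probe was printed at 10 spots on each array, and the SD of the log2 ratio between spots was 0.05 at E14.5 and 0.17 at E15.5. Spots share a hybridization, so that this SD leaves out any spread between cultures. A further probe of Pdgfra was well above background in RTOC on the E14.5 array only and was not tested; its log2 ratios were 0.75 and 0.99. The probes are shown because the value of the gene rests on 1 of them, the dim probe in full and the bright probe by its first 30 bases.
Pdgfra A_52_P264283: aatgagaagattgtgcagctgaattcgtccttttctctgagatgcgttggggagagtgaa
Pdgfra A_51_P345649: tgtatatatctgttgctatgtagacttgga

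Pdgfrb encodes PDGFRβ, the receptor of PDGF-B and PDGF-D on pericytes and mesenchyme, and has 1 probe. Its signal was 15.46 and 14.25 in 2D culture (E14.5 and E15.5) and 13.77 and 13.50 in RTOC. The RTOC values were the lower ones on both arrays, with log2 ratios of -1.69 and -0.75 and a mean of -1.22 ± 0.66 (SD, n = 2 arrays; 95% confidence interval -2.02 to -0.42; adjusted p = 0.0404 from limma), or 2.33-fold lower. Here too the arrays differed more in 2D culture (-1.21) than in RTOC (-0.28). Within an array, the ratio of Pdgfra exceeded that of Pdgfrb by 3.58 (E14.5) and 4.53 (E15.5). Of the 6 calls in genes measured in all channels, that of Pdgfrb was lost under the most alternatives with an adjusted p, 6. Under normexp background correction the mean ratio was -1.20 with loess and -0.93 with median centring, and neither was called.

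Both signs were also seen among the VEGF ligands. Vegfb encodes VEGF-B, a ligand of VEGFR1 that is best known from heart and muscle. Its signal was 12.62 and 12.31 in 2D culture and 13.49 and 13.58 in RTOC. The log2 ratios of 0.87 (E14.5) and 1.27 (E15.5) had a mean of 1.07 ± 0.29 (SD, n = 2 arrays; 95% confidence interval 0.41 to 1.73; adjusted p = 0.0343 from limma), or 2.10-fold higher. The other probe of Vegfb gave 0.97 and 0.94, a mean of 0.96 ± 0.02 (adjusted p = 0.0401). Vegfb was thus about doubled in RTOC by both probes on both arrays. The call of its brightest probe was lost in 4 of the 13 alternatives with an adjusted p. Trend and robust fitting in limma was 1 of these (adjusted p = 0.0627).

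Vegfc encodes VEGF-C, the growth factor of lymphatic vessels. The single probe gave 13.23 and 11.99 in 2D culture (E14.5 and E15.5) and 11.19 and 10.60 in RTOC. The mean log2 ratio was -1.71 ± 0.46 (SD, n = 2 arrays; 95% confidence interval -2.42 to -0.99; adjusted p = 0.0114 from limma), or 3.27-fold lower, and the single arrays gave -2.03 and -1.38. The call of Vegfc was lost in 4 of the 13 alternatives with an adjusted p, among them normexp with median centring (adjusted p = 0.0735 from limma). The ratio of Vegfb exceeded that of Vegfc by 2.90 (E14.5) and 2.66 (E15.5).

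Vegfa encodes VEGF-A, the main growth factor of blood vessels and a gene that responds to low oxygen. Its 3 probes gave different values. The brightest, A_52_P638895, gave a signal of 13.09 and 13.09 in 2D culture and of 12.54 and 13.28 in RTOC, so that the cultures overlapped. The ratios of -0.54 and 0.19 had a mean of -0.18 ± 0.52 (SD, n = 2 arrays), which was not called (adjusted p = 0.674 from limma; 95% confidence interval -0.91 to 0.56). The others had ratios below 0 on both arrays but missed the threshold. Probe A_51_P482552, printed at 10 spots, gave -0.84 ± 0.32 (adjusted p = 0.0682), with an SD between spots of 0.07 and 0.03. Probe A_52_P249424 gave -1.15 ± 0.79 (adjusted p = 0.0577), with -1.71 at E14.5 and -0.59 at E15.5. The first of these was called in 1 alternative (adjusted p = 0.0490, both channels well above background) and the second in 3 (adjusted p down to 0.0389). The probes spanned 0.97 on the log2 scale, and 1166 of the 5377 genes with several tested probes had a larger range.

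Angpt1 encodes angiopoietin-1, which mesenchymal cells and pericytes secrete. In 2D culture neither of its probes rose well above background on either array, and both were well above it in RTOC on both arrays. The brighter probe gave 5.39 and 4.37 in 2D culture and 6.92 and 6.91 in RTOC; the other gave 4.11 and 4.95 in 2D culture and 6.57 and 6.12 in RTOC. Since the 2D values are within the background, only a bound holds. Bounds here and below were taken after normexp background correction with an offset of 50, loess and Aquantile scaling. They do not use the quantile-normalized signals above. With the 2D signal raised to the lowest signal counted as well above background on that scale, the probes were at least 1.16-fold and at least 1.08-fold higher in RTOC. The fitted means of 2.03 ± 0.71 and 1.81 ± 0.91 (SD, n = 2 arrays; adjusted p = 0.0103 and 0.0203 from limma) are no measure of size at this signal. With the same background correction, which pulls dim signals together, the fitted mean of the brighter probe was 0.27 to 0.29 and was not called. The bounds share that correction, so this is no separate check of them.

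The same culture was also compared between the arrays, over the 9 genes measured in all channels. In 6 of the 9 the E15.5 and E14.5 signals differed more in 2D culture than in RTOC, a share near that of all 12074 such genes (60.9%). The median absolute difference was 0.97 in 2D culture and 0.41 in RTOC over the 9 genes, and 0.36 and 0.27 over all. In 2D culture Pdgfra, Pdgfrb and Vegfc were lower on the E15.5 array, by -2.19, -1.21 and -1.24. Pdgfb and Pdgfd were higher there by 0.97 and 1.78. These differences have no replicate, since each stage is on 1 array.

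Of the 12 other ligands and receptors of the same families, 11 were tested and 4 were called, against 28.3% of all tested genes. In 8 the brightest probe was well above background in all channels. Of these, 2 were called, Pdgfrl and Nrp1, a share near the 24.9% of all such genes. The other 2 calls, Tie1 (an endothelial partner of Tie2) and Tek (which encodes Tie2), were in genes with no 2D signal well above background, which entered the test only through RTOC. They were higher in RTOC by at least 1.12-fold and 1.1-fold (adjusted p = 0.00352 and 0.0181 from limma), and with normexp and loess their fitted means were 0.26 and 0.15 and were not called. Another probe of Tek, A_52_P234087, was well above background in RTOC on the E15.5 array only and was not tested; its log2 ratios were -0.71 and -0.46, the opposite sign. Pdgfrl, which encodes a PDGF-receptor-like protein, gave 9.15 and 9.48 in 2D culture and 9.92 and 10.62 in RTOC, a mean ratio of 0.95 ± 0.27 (adjusted p = 0.0460). Nrp1 encodes neuropilin-1, a co-receptor of VEGF-A. It gave 9.20 and 9.20 in 2D culture and 7.99 and 7.77 in RTOC, with a mean ratio of -1.32 ± 0.16 (adjusted p = 0.0172), and its other 2 probes gave -1.53 and -1.65 and were called as well. Under normexp the mean of the brightest Nrp1 probe was -0.53 with loess and -0.42 with median centring, and neither was called.

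Flt1 and Kdr gave unlike ratios on the arrays, a difference with no replicate. Flt1 encodes VEGFR1, the receptor of VEGF-A and VEGF-B. Its signal was 13.52 (E14.5) and 10.93 (E15.5) in 2D culture and 10.35 and 10.35 in RTOC, and the log2 ratios of -3.16 and -0.58 had a mean of -1.87 ± 1.83 that was not called (adjusted p = 0.0688 from limma); it was called in 4 alternatives, with adjusted p-values of 0.0373 to 0.0489. The other 2 tested probes gave -1.54, which was called (adjusted p = 0.0418), and -1.53, which was not (adjusted p = 0.0665). Kdr encodes VEGFR2, the main signalling receptor of VEGF-A. It gave 10.03 and 7.72 in 2D culture and 10.05 and 10.57 in RTOC, a ratio of 0.03 at E14.5 and of 2.84 at E15.5 (adjusted p = 0.150). Flt4, the receptor of VEGF-C, was well above background on the E15.5 array only and was not tested; its ratios were -1.71 at E14.5 and -1.74 at E15.5.

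For 5 more genes of these families the mean did not pass the test. Angpt2 encodes the angiopoietin that can oppose angiopoietin-1; its ratio was 0.42 at E14.5 and 4.16 at E15.5 (mean 2.29 ± 2.64, adjusted p = 0.0920 from limma, and 0.0279 with median centring of the processed signals). Vegfd, a ligand close to VEGF-C, gave 0.17 and 2.20 (adjusted p = 0.128). Nrp2, the co-receptor of VEGF-C, gave -1.63 and -0.36 (adjusted p = 0.0970). Pgf, placental growth factor, gave 0.15 and 0.53 (adjusted p = 0.371). Angpt4, another angiopoietin, also missed the threshold, with opposite signs of -0.41 and 0.50 (adjusted p = 0.919).

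Genes whose products cut or bind these ligands outside the cell changed in both directions. Of 15 listed, 14 were on the array and 13 were tested, of which 3 were called higher and 5 lower, against 28.3% of all tested genes called. Of the 11 that were well above background in all channels, 6 were called, against 24.9% of such genes; the other calls were Adamts3, dim in 2D culture on both arrays, and Ccbe1, dim in RTOC on the E14.5 array. Furin, the proprotein convertase that trims several PDGF and VEGF precursors, gave 14.33 and 14.61 in 2D culture and 12.57 and 12.92 in RTOC (mean ratio -1.72 ± 0.04, adjusted p = 0.00745 from limma). Pcsk6 and Pcsk5, convertases of the same family, were higher, at 2.43 ± 1.20 and 1.81 ± 0.58 (adjusted p = 0.0144 and 0.0117). Plau, the urokinase protease, which can activate PDGF-D, was lower at -1.67 ± 0.20 (adjusted p = 0.00886). Thbs1 encodes thrombospondin-1, a matrix protein that restrains vessel growth, and it gave the largest ratio of the list, -4.66 ± 0.05 (adjusted p = 0.00155). Its signal was 16.19 and 14.41 in 2D culture and 11.57 and 9.72 in RTOC.

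Of 21 genes of signalling and feedback below the receptors, all tested, 1 was called higher and 1 lower, against 28.3% of all tested genes called, and the median log2 ratio was 0.06. With the processed signals centred on the median, or with the deposited ratios, 4 were called. Nck1, an adaptor that docks to activated receptors, gave a mean of 1.55 ± 0.90 (adjusted p = 0.0307 from limma). Spred3, an inhibitor of the Ras pathway, was not well above background in RTOC and entered the test only through 2D culture, where it was high. It was at least 1.26-fold lower in RTOC (adjusted p = 0.00288 from limma). Of the 20 genes measured in all channels 1 was called, against 24.9% of such genes.

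Vegfa is a known target of the hypoxia-inducible factors, and of 17 genes of oxygen sensing and the hypoxia response, all tested, 2 were called higher and 4 lower, a share near the 28.3% of all tested genes. One of those higher, Epas1, which encodes HIF-2α, had no 2D signal well above background and entered the test only through RTOC. Of the 16 genes measured in all channels 5 were called, against 24.9% of such genes. Slc2a1 (a glucose transporter), Car9 (a carbonic anhydrase) and Ldha (lactate dehydrogenase A) were lower in RTOC, with means of -1.66 ± 1.0, -1.61 ± 0.95 and -1.48 ± 0.57 (adjusted p = 0.0302, 0.0304 and 0.0204 from limma). Pdk1, a kinase that restrains the entry of pyruvate into mitochondria, was higher at 2.15 ± 1.85 (adjusted p = 0.0489), with ratios of 3.46 and 0.85. These calls depended on the processing: 2 of the list were called with normexp and loess, 0 with normexp and median centring and 1 without pairing the channels of an array, and Pdk1, Slc2a1 and Car9 were called in none of these. The median of the 17 genes was 0.01, near that of all tested genes (0.002).

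**Figure D4:**
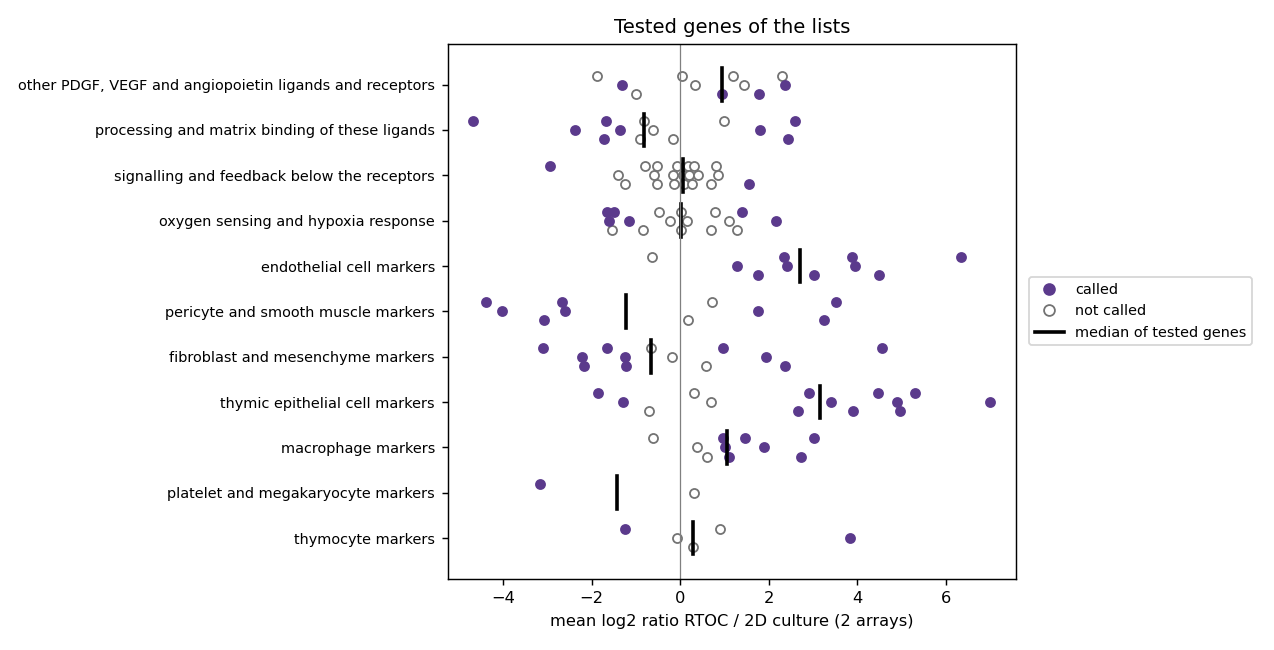
Mean log2 ratio of RTOC over 2D culture (2 arrays) for each tested gene of the 11 lists, filled where called and open where not, with a black line at the median of the list. The endothelial list lies to the right, but its median includes 4 genes of dim 2D signal, whose fitted ratios are no measure of size. The pericyte and smooth muscle list is split, with 3 genes called higher and 5 called lower.

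The cells that make or sense these factors were followed through marker lists. Of 10 endothelial markers, 5 were well above background in all channels. Of these, 4 were called higher and none lower, against 24.9% of all such genes called in either direction. The other 5, dim in 2D culture on 1 or both arrays, entered the test there through RTOC and were called higher as well. Emcn (endomucin), Robo4 (a guidance receptor of endothelium) and Esam (an adhesion molecule) had mean ratios of 3.87 ± 1.0, 3.02 ± 0.40 and 2.41 ± 0.03 (adjusted p = 0.00289, 0.00242 and 0.00306 from limma). Their lowest values under the alternatives were 2.53, 1.74 and 0.94. The summed intensity of the list was 2124 and 2578 in 2D culture and 11843 and 17560 in RTOC, and in 2D culture 4 of the markers stayed within the background on both arrays. Cdh5 (VE-cadherin), 1 of these 4, was at least 5.01-fold higher in RTOC. Eng (endoglin), measured in all channels, was the marker not called, with ratios of -1.28 and 0.03 (adjusted p = 0.251). Beside these values stand Pdgfb, which endothelium makes and which was lower, and Flt1, which was not called by its brightest probe. Tie1 and Tek were called higher, through RTOC alone. Kdr (0.03 and 2.84) and Angpt2 (0.42 and 4.16) were not called. The part of endothelial cells in these results was not tested.

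Pericyte and smooth muscle markers were split. Of 11 listed, 10 were tested, all well above background in all channels. Of these, 3 were called higher and 5 lower, against 24.9% of all such genes called. Kcnj8, Rgs5 and Abcc9, which mark pericytes of several tissues, were higher at 3.51 ± 0.80, 3.25 ± 0.76 and 1.76 ± 0.36 (adjusted p = 0.00279, 0.00311 and 0.00904 from limma). Tagln, Cnn1 and Acta2, which encode parts of the contractile apparatus, were lower at -4.38 ± 0.38, -4.02 ± 0.29 and -3.06 ± 0.38 (adjusted p = 0.00155, 0.00155 and 0.00233). The other 2 genes called lower, Cspg4 (the proteoglycan NG2) and Mcam (an adhesion molecule), are known from pericytes too. They gave -2.68 ± 0.69 and -2.61 ± 0.72 (adjusted p = 0.00448 and 0.00504 from limma). Both are among the 11 listed, and only the choice to name them here came after their values were seen. Pdgfrb, a receptor that pericytes share, moved with the genes called lower. The summed intensity of the list was 629766 and 587185 in 2D culture and 111021 and 89272 in RTOC. In 2D culture this sum rests mostly on Acta2 (signals of 18.15 and 18.01) and Tagln (18.07 and 17.79), both called lower, so its fall leaves out the 3 genes called higher. The part of these cells in the Pdgfrb value was not tested.

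Fibroblast and mesenchyme markers, 13 of 13 tested, gave 4 higher and 6 lower, against 28.3% of all tested genes called. Pdgfra was on the side of those higher. Of the 12 markers measured in all channels 9 were called, against 24.9% of such genes. Wnt5a, called lower, was dim in RTOC on both arrays and entered the test only through 2D culture. Lum (lumican), Dpt (dermatopontin) and Dcn (decorin), which encode matrix proteoglycans and binding proteins, were higher at 4.55 ± 0.38, 2.37 ± 0.46 and 1.94 ± 0.87 (adjusted p = 0.00155, 0.00443 and 0.0158 from limma). Fn1 (fibronectin), Col1a1 (a chain of collagen I) and Vim (vimentin) were lower at -2.20 ± 0.57, -2.17 ± 0.42 and -1.65 ± 0.77 (adjusted p = 0.00640, 0.00530 and 0.0207). The summed intensity of the list was 576883 and 467204 in 2D culture and 337179 and 357267 in RTOC. In 2D culture most of this sum came from Col1a1 (signals of 17.60 and 17.45), Col1a2 (16.98 and 16.32) and Vim (16.83 and 15.65), all called lower, whereas 4 genes were called higher. The part of mesenchymal cells in the Pdgfra and Pdgfrb values was not tested.

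The label names thymic stromal cells, which include thymic epithelium, and epithelial markers were present in both cultures. All 14 thymic epithelial markers were well above background in all channels, and 9 were called higher and 2 lower, against 24.9% of such genes called. The summed intensity was 317734 and 659989 in 2D culture and 1158460 and 1149770 in RTOC. In 2D culture Krt8 and Krt18, which were not called, weigh most in this sum. The signal of Krt8 there was 17.01 (E14.5) and 18.58 (E15.5), and that of Krt18 was 16.74 and 17.29. Ccl25 (a chemokine for thymocyte progenitors), Prss16 (a thymus serine protease) and Cd83 were higher at 7.0 ± 0.48, 5.29 ± 0.08 and 4.97 ± 0.01 (adjusted p = 0.00155 each from limma), and Krt14 and Cdh1 were lower at -1.86 ± 0.05 and -1.28 ± 0.38 (adjusted p = 0.00603 and 0.0229). All 10 macrophage markers were measured in all channels, and 7 were called higher, against 24.9% of such genes called in either direction. Among them were Adgre1, Aif1 and Ptprc at 3.01 ± 0.30, 2.73 ± 0.57 and 1.88 ± 0.12 (adjusted p = 0.00227, 0.00367 and 0.00600 from limma). The summed intensity of the macrophage list was 77633 and 66359 in 2D culture and 197386 and 239089 in RTOC. Of 7 platelet and megakaryocyte markers, which would accompany a store of PDGF protein, 2 were tested, and Pf4 was lower at -3.16 ± 0.46 (adjusted p = 0.00235), whereas Treml1, dim in 2D culture, was not called (mean 0.31, adjusted p = 0.393). Of 9 thymocyte markers 5 were tested and 2 called, against 28.3% of all tested genes. Thy1, which mesenchyme shares, was lower at -1.25 ± 0.46 (adjusted p = 0.0278), and Cd3g, well above background in 2D culture on the E14.5 array only, was called higher. The part of any of these cells in the values of the 10 genes was not tested.

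Promoters are shown for the called members whose RefSeq start is in the table of sequences used here, with the gene higher in RTOC first for each family. Each run holds the 250 bases before the annotated start, 5′ to 3′ on the strand of the gene, in the assembly GRCm38.p6. Capitals mark matches on either strand to 5 motifs: ACGTG (the core bound by hypoxia-inducible factors), GGAATG (TEAD factors), GGGCGG (the GC box), CCAAT and TATAAA. Pdgfra lies on the plus strand at chr5:75152001-75152250, Pdgfc on the plus strand at chr3:81036166-81036415, Vegfb on the minus strand at chr19:6987652-6987901 and Vegfc on the plus strand at chr8:54077282-54077531.
Pdgfra: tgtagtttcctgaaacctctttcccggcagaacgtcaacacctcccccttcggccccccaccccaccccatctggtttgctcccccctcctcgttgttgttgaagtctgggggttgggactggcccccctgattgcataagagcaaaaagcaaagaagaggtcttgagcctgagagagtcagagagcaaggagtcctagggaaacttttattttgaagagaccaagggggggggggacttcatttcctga
Pdgfc: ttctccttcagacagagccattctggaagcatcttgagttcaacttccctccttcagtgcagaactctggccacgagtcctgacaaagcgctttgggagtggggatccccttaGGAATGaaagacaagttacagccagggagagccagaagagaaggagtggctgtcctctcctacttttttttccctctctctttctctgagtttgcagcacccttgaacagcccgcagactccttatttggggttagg
Vegfb: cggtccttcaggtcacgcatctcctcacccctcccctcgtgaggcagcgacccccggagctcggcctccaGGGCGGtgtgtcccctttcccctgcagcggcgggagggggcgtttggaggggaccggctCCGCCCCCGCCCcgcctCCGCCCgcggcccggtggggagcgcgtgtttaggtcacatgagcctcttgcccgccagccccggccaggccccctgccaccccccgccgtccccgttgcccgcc
Vegfc: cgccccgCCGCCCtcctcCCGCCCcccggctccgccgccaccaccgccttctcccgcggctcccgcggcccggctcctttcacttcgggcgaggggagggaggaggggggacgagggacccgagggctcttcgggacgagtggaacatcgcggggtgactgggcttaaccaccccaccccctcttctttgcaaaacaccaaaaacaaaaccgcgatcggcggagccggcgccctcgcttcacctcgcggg
Vegfb held GGGCGG 4 times and Vegfc 2 times. Pdgfa and Vegfa, which were not called, held it before both of their annotated starts. In all, 4 of the 7 members with an entry held that motif. By window it was found before 6 of their 9 annotated starts, against 32.7% of all 32851 promoter windows of this length. The part of the motif in the changes was not tested. Pdgfc held GGAATG 1 time (12.6% of all windows), and Pdgfra held none of the motifs. Of the 7 members with an entry in the table, Vegfa alone held ACGTG, 1 time before 1 of its 2 annotated starts (16.6% of all windows). CCAAT was found in Vegfa alone (33.8% of all windows) and TATAAA in Pdgfd alone (12.4%). A match is a description of letters and not a binding site.

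The genes whose pattern over the 2 arrays was closest to that of Pdgfra and of Pdgfc were taken by Euclidean distance between the pairs of log2 ratios, over 12065 other genes measured in all channels. Closest to Pdgfra were Sncaip (1.94 and 3.80, distance 0.04), Vcam1 (1.85 and 3.78, distance 0.05) and Rassf2 (1.96 and 3.64, distance 0.16). Vcam1 encodes an adhesion molecule of stroma and activated endothelium. Within a distance of 0.5 there were 6 genes for Pdgfra and 126 for Pdgfc. Closest to Pdgfc were Pvr (-2.50 and -1.81, distance 0.02), which encodes a nectin-like adhesion protein, Pard6b (-2.45 and -1.76, distance 0.08), a polarity protein, and Slc39a14 (-2.54 and -1.71, distance 0.08), a metal transporter. Each likeness rests on 2 arrays.

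**Figure D5:**
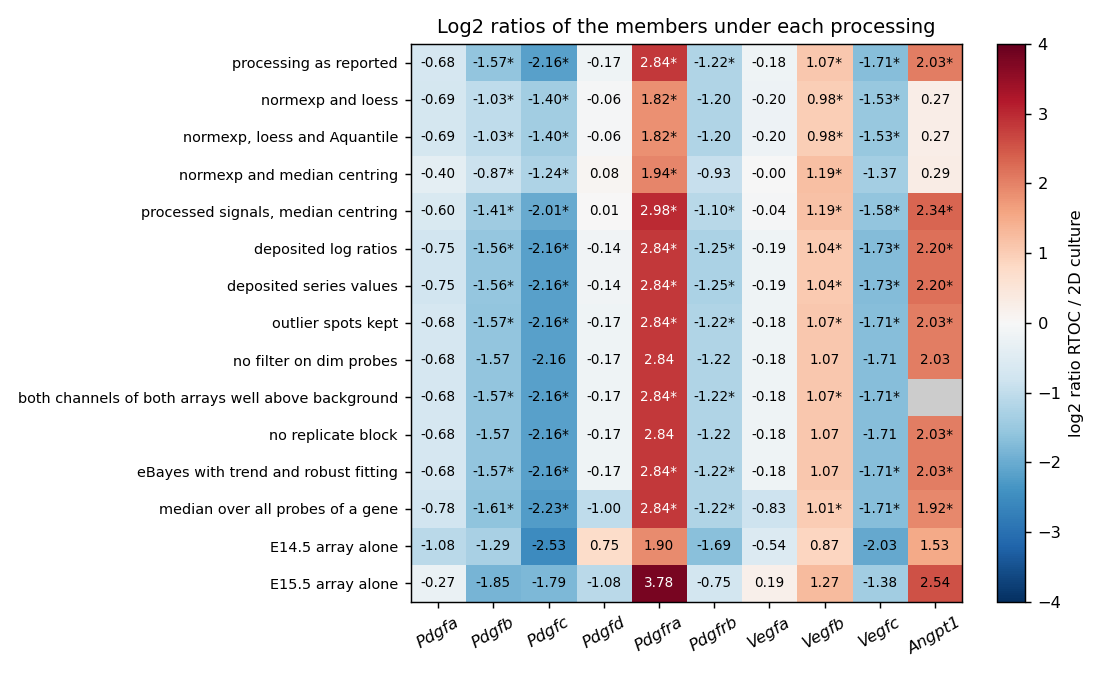
Colour and number give the mean log2 ratio (RTOC over 2D culture) for the 10 genes under each processing, with an asterisk where the adjusted p was below 0.05; single arrays carry no test and a grey cell was not tested. The sign of the 7 called genes is the same in every row where they were tested and on single arrays, whereas Angpt1 falls to 0.27 under normexp, and Pdgfd and Vegfa, which were not called, change sign.

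The direction of the 7 called genes, Angpt1 included, held on each array alone and in every processing in which they were tested, as the plot of ratios by processing shows, but the calls did not all hold. The fit that treated the 4 channels as 2 groups, without pairing the channels of an array, called 2 of the 10 genes, Pdgfc and Angpt1. Tested with no filter on dim probes, the fit in limma called none of the 10 after adjustment and 5 of them at an unadjusted p below 0.05. Angpt1 could not be tested where both channels of both arrays had to be well above background, and the other 6 calls were made there. With normexp and median centring 4 were called: Pdgfb, Pdgfc, Pdgfra and Vegfb. The mean of Pdgfra was between 1.82 and 2.98 over the processings that used both arrays, and that of Pdgfc between -2.23 and -1.24.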

How the data were processed

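Gene expression was compared between RTOC and 2D culture on 2 arrays of 2 colours. The authors ran Agilent Feature Extraction, version 9.1.3.1 per the file headers and 11.5.1.1 in the submitters' processing notes, and the deposited scanner files hold mean signals, local backgrounds and processed signals, each an intensity, and a log10 ratio of Cy5 over Cy3. The deposited series values are the log10 ratio of the same processed signals (largest difference 5e-10). The methods state quantile normalization in GeneSpring. The labels name TRIzol and the methods RNeasy, and the scanner of the headers differs from that of the methods.

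From the processed signals of 43379 spots that are not controls, outlier spots (5 at E14.5 and 1 at E15.5) were dropped, the 4 channels were quantile normalized and log2 ratios were averaged by probe in R 4.3.3 with limma 3.58.1. The ratio was tested against 0 with lmFit and eBayes in a two-sided test, adjusted over all tested probes (Benjamini-Hochberg). Since 1 degree of freedom is left, p-values lean on a spread shared over probes (4.53 prior degrees of freedom). The steps were tested on simulated data. Nothing says that the arrays are separate experiments beyond their labels, so the p-values measure the spread between these arrays. Probes were named through a RefSeq table of GRCm38.p6, 22951 by accession, 6659 by symbol and 3109 by an older symbol; 8455 kept the name in the files. Sequences of probes are from the array files and those of promoters from RefSeq (GRCm38.p6); 7 of the 10 members had a promoter entry. The probe sequences of Vegfa are not reported here.

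All members were named at every probe, and all genes of the list of other ligands and receptors. Of every other list up to 3 genes called higher and 3 called lower were named, by size, among those well above background in all channels where there were any. Further genes were named outside this rule to qualify a count or a sum, among them Cspg4, Mcam, Cdh5, Eng, Epas1, Adamts3, Ccbe1, Wnt5a, Col1a2, Krt8, Krt18 and Treml1. The members and lists were chosen with earlier results of these data known. Alternatives were other background corrections and scalings, deposited ratios, outlier spots kept, other filters, other models, each array alone and the median over the probes of a gene. The small number of arrays limits the precision.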

Additional observations from a re-analysis of the deposited data

Results flagged for a closer look

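Each value below is the log2 ratio of RTOC over 2D culture on the E14.5 array minus that on the E15.5 array, for a probe whose ratio had opposite signs on the arrays. The difference between the arrays was not tested in any of them, since each stage is on 1 array. For Pdgfd, probe A_52_P636948, the difference was 1.83, from 0.75 and -1.08. For Vegfa, probe A_52_P638895, it was -0.73, from -0.54 and 0.19. For Angpt4, probe A_51_P179504, it was -0.91, from -0.41 and 0.50.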

How the results depend on the processing

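The number of called members was 7 as reported; it was 5 with normexp and loess, 6 where both channels of both arrays had to be well above background and 6 with trend and robust fitting. It was 4 with normexp and median centring, 2 with no replicate block (the 4 channels as 2 groups), 0 with no filter on dim probes, and 0 by the methods' t-test both unadjusted and after Benjamini-Hochberg adjustment. Of the other ligands and receptors 4 were called as reported, against 6 with median centring of the processed signals, 5 with the deposited ratios, 1 with normexp and loess (with or without Aquantile), 0 with normexp and median centring, 2 with no replicate block, 0 with no filter, 1 by the unadjusted t-test and 0 after adjustment. Over all listed genes, each counted once, 67 of 125 tested were called, against 74 with median centring of the processed signals, 72 with the deposited ratios, 43 with normexp and median centring, 0 with no filter, 32 by the unadjusted t-test and 0 after adjustment. Over all probes 6855 were called, against 7794 with median centring of the processed signals, 7311 with the deposited ratios, 3709 with normexp and loess (with or without Aquantile), 2904 with normexp and median centring, 0 with no filter, 4049 with no replicate block, 3541 by the unadjusted t-test and 4 after adjustment. With no filter 41168 probes were tested in limma, of which 10660 had an unadjusted p below 0.05; 10242 did with the filter. The mean of Pdgfd, not called, changed sign to 0.077 with normexp and median centring and to 0.0080 with median centring of the processed signals, and that of Angpt4 to -0.052 with normexp and loess, with or without Aquantile. Median centring moved the median of all tested probes to 0.12 and 0.15. Of 129 values of the 10 genes with an adjusted p under the alternatives, 100 kept their sign and their side of the threshold, 27 kept the sign and lost the call, and 2 changed sign. Single arrays carry no test; of their 20 values 2 had the other sign, Pdgfd on the E14.5 array (0.75) and Vegfa on the E15.5 array (0.19). The list of ligand processing and binding fell from 8 calls to 2 with normexp and median centring, and with no replicate block the fibroblast list fell from 10 to 6 and the macrophage list from 7 to 4. The endothelial list fell from 9 to 4 and the thymocyte list from 2 to 1 where all channels had to be well above background. Counts were not run without an array, because 1 array leaves no spread. Signal over background limits Angpt1, Tek and Tie1, whose 2D level is within the background.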
